A study of Rattus norvegicus with 4 samples.

Results

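The intercalated disc is the specialised end-to-end contact between heart muscle cells, and 10 of its genes were followed in RNA-seq of cultured rat cardiomyocytes. They were chosen by name and cover connexins (Gja1, Gja5, Gjc1), desmosomal plaque proteins (Dsp, Pkp2, Jup), desmosomal cadherins (Dsc2, Dsg2), the classical cadherin Cdh2 and the scaffold Tjp1. Rows of the table of 16290 genes were matched by symbol. Of the 10 genes, 9 were measured and all 9 passed the filter on low values, while Pkp2, a plakophilin of the desmosomal plaque, was not analysed here.

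The 2 Pdk3 libraries (Pdk3 1 and Pdk3 2) came from cardiomyocytes of newborn rats (postnatal day 3) infected with an adenovirus that carries Pdk3, the gene of a kinase that inhibits the pyruvate dehydrogenase complex. The 2 Mock libraries (Mock 1 and Mock 2) came from such cells given a mock adenovirus. All cells were grown with 5% horse serum. The promoter of the vector, the time between infection and harvest, the rat strain and whether the 2 libraries of a group are separate cultures are not stated in the labels.

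Several kinds of contact meet at the disc. Gap junctions are channels built of connexins that let ions and small molecules pass between cells, so that excitation spreads. Desmosomes tie the intermediate filaments of neighbouring cells together through cadherins and plaque proteins, and adherens junctions tie the actin filaments of the sarcomeres through Cdh2 (N-cadherin) and catenins. In newborn ventricular muscle these parts still lie around the cell border and gather at the cell ends as the heart matures.

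The values, called normalised counts here, are the authors' scaled and rounded numbers of reads in each gene. They summed to 4476649 and 4470251 in the Pdk3 libraries and to 4448199 and 4454567 in the Mock libraries. Pdk3 itself had 1218 and 1177 normalised counts in the Pdk3 libraries, against 396 and 411 in the Mock libraries. The cardiomyocyte markers Myh6 (4127 and 4040 in Pdk3, 3865 and 3806 in Mock) and Tnnt2 (1302 and 1295 in Pdk3, 1251 and 1236 in Mock) were present at high values in every library. Levels of different genes are not ranked here, because transcript lengths were not available.

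Among the connexins, Gjc1 rose by 33.6% in the Pdk3 libraries, Gja5 fell by 17.7% and Gja1 fell by 6.42%. Jup fell by 6.63%, Tjp1 fell by 5.88% and Dsp fell by 4.55%. The cadherins Cdh2, Dsc2 and Dsg2 did not pass the test. In all, 1 of the 9 measured genes was higher and 5 were lower at an adjusted p under 0.05 (limma, Benjamini-Hochberg over 12838 genes). Over all genes tested 22.9% were called, 11.7% higher and 11.3% lower. Among genes with a mean value at least that of Gjc1, the lowest of the 9, the share called was 30.5%, with 15.0% higher and 15.5% lower. Without an intensity trend 1 was higher (Gjc1) and 0 lower, and without the filter on low values 1 was higher and 1 lower. The 2 groups did not overlap in 8 of the 9 genes, as in 61.0% of all genes tested. The median log2 fold change (Pdk3 over Mock) of the 9 genes was -0.067, against -0.007 over all genes tested.

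**Figure D1:**
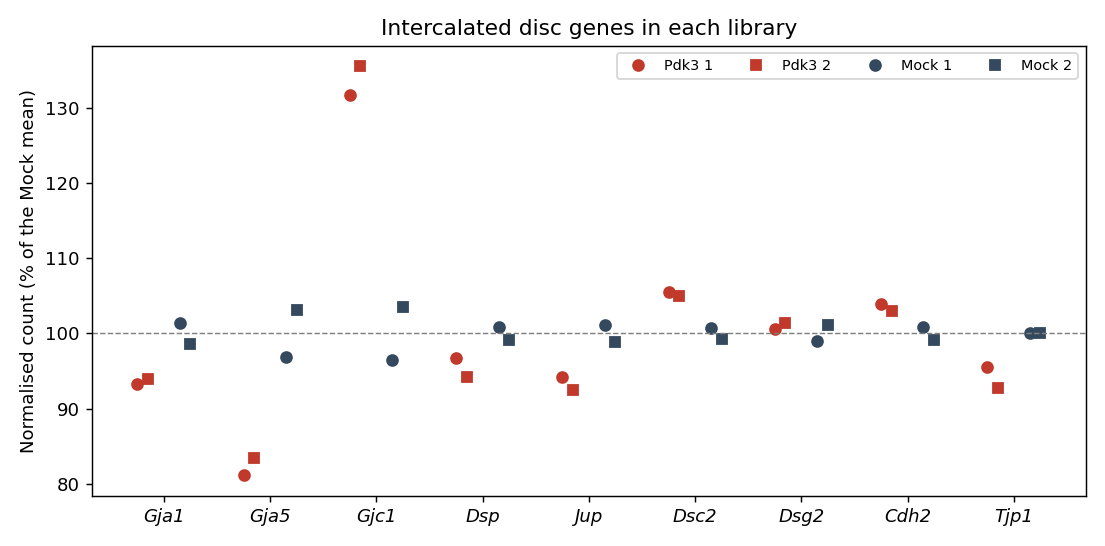
Normalised count of each intercalated disc gene in each library as a percentage of the mean of the Mock libraries (vertical axis, which does not start at 0), with Pdk3 libraries left (red) and Mock libraries right (dark). With Pdk3, Gjc1 lies at 132% and 136% and Gja5 at 81.1% and 83.4%, while the other 7 genes lie between 92.5% (Jup) and 105.5% (Dsc2).

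Start-site sequences are shown for Gja5 and Gja1, the connexins that fell, and for Dsp, one of the plaque genes that fell, as examples of the region from which transcription of these genes begins. RefSeq (build GRCr8) gives 7 of the 10 genes an entry of 250 bases before to 50 bases after the start site. Capitals mark matches on either strand to 7 searched motifs, which did not overlap each other in these sequences. The Gja5 region is chr2:187290977-187291276 (plus strand), the Gja1 region chr20:36302314-36302613 (plus strand) and the Dsp region chr17:26877072-26877371 (minus strand).
Gja5: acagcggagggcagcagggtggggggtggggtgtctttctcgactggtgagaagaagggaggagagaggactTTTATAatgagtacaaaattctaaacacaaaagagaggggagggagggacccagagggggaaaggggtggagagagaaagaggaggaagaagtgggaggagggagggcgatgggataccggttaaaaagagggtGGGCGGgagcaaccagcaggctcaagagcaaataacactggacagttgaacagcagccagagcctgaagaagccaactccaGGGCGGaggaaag
Gja1: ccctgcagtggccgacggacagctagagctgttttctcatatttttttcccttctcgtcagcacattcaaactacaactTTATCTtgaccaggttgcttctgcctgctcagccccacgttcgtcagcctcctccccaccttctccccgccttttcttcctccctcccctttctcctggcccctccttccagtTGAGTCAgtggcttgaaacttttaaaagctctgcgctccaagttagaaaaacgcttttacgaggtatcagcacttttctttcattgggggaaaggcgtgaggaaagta
Dsp: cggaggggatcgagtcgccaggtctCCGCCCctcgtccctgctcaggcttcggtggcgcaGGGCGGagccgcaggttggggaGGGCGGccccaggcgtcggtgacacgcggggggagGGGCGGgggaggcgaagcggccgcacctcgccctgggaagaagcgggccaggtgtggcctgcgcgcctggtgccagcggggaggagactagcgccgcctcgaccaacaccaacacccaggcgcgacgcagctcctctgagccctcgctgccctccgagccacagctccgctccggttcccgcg

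The Gja5 region held GGGCGG, the GC box bound by Sp1-type factors, 44 bases before and 37 bases after the start, and TATAAA 178 bases before it. The Gja1 region held TGANTCA, the AP-1 site, 58 bases before the start. It also held the site of GATA factors, spelled AGATAA, 171 bases before the start. The Dsp region held the GC box at 4 positions between 225 and 133 bases before the start, and its GC content was 75%, against 55.3% for Gja5 and 50.3% for Gja1. Of 33469 RefSeq start-site regions of the same length, 33.1% held a GC box, 7.33% the AP-1 site, 11.6% the GATA site and 14.2% TATAAA. The T-box motif GGTGTGA, held by 3.83% of regions, had no match in these 3 sequences. The same was true of the NKX2-5 motif TNAAGTG (11.5% of regions) and of the MEF2 motif, CTA and TAG with 4 bases between them (3.84%). In the regions not shown, the GC box also occurred in Dsg2 (4 matches) and Dsc2 (2 matches), which were not called. Tjp1, which fell, held 2 matches to the NKX2-5 motif and 0 to the GC box. A match is a stretch of letters only, and factor binding was not measured.

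Gjc1 encodes connexin 45, which forms low-conductance channels and is known from early heart muscle and from nodal tissue. The gene (ENSRNOG00000048838) lies on chromosome 10, 90781402 to 90912287, minus strand, rn6. Its normalised counts were 280 and 288 in the Pdk3 libraries, against 205 and 220 in the Mock libraries. Both Pdk3 libraries were above both Mock libraries, and the gap between the groups was larger than the gap within either. The mean was 284.0 ± 5.7 with Pdk3 and 212.5 ± 10.6 with Mock (SD, n = 2 each). On the log2 scale Pdk3 over Mock was 0.42 ± 0.06 (SE; limma, adjusted p = 0.00252). With p floored at counting noise, meaning the larger of limma's p and that of an exact binomial test on the reads, the adjusted p was 0.00253.

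Gja5 encodes connexin 40, the high-conductance connexin of atrial muscle, of the fast conduction system and of arterial endothelium. The gene (ENSRNOG00000017484) lies on chromosome 2, 199162745 to 199184939, plus strand, rn6. Normalised counts were 531 and 546 in the Pdk3 libraries, against 634 and 675 in the Mock libraries. The Pdk3 libraries were the lower ones, without overlap. The mean was 538.5 ± 10.6 with Pdk3 and 654.5 ± 29.0 with Mock (SD, n = 2 each). On the log2 scale this was -0.28 ± 0.04 (limma, adjusted p = 0.00260, and 0.00262 floored at counting noise). Without an intensity trend in limma the adjusted p was 0.0703, and the call ended.

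Most endothelial markers had lower values with Pdk3, as Gja5 did. Of 13 tested, 2 were lower (Cdh5 and Tie1), 0 higher and 12 had a log2 fold change below 0, and their summed normalised counts were 1794 to 1851 with Pdk3 and 1941 to 1998 with Mock. Pecam1, a defining endothelial marker, was not analysed here, and no measured marker of this list that defines the type was at 0 (Cdh5 had 129 to 134 with Pdk3 and 184 to 195 with Mock). Their part in the Gja5 result was not tested. In bulk RNA, fewer cells of a type and less RNA per cell cannot be told apart.

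Gja1 encodes connexin 43, the main connexin of working ventricular muscle, which fibroblasts also express. The gene (ENSRNOG00000000805) lies on chromosome 20, 37876650 to 37889089, plus strand, rn6. It had 1323 and 1332 normalised counts in the Pdk3 libraries, against 1438 and 1399 in the Mock libraries. The groups did not overlap, though Mock 2 lay closer to the Pdk3 libraries than Mock 1 did. The log2 fold change was -0.10 ± 0.02 (limma, adjusted p = 0.0222). Floored at counting noise the adjusted p was 0.0800, and the call ended. Fibroblast markers had 1 of 13 higher (Vim) and 1 lower (Dcn), with sums of 12163 to 12489 with Pdk3 and 12312 to 12644 with Mock, and their defining markers Pdgfra and Tcf21 were above 0 in all libraries. Their part in the Gja1 result was not tested.

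Within a library the 3 connexins can be set against each other without any scaling between libraries. Of the summed values of Gja1, Gja5 and Gjc1, Gjc1 made up 13.1% and 13.3% in the Pdk3 libraries, against 9.003% and 9.590% in the Mock libraries. Gja5 made up 24.9% and 25.2% in the Pdk3 libraries, against 27.8% and 29.4% in the Mock libraries. The share of Gja1 was 62.0% and 61.5% with Pdk3 and 63.2% and 60.99% with Mock, and here the groups overlapped. The mean share of Gjc1 was thus 3.91 percentage points higher with Pdk3, while that of Gja5 was lower (25.05% ± 0.23 with Pdk3 and 28.6% ± 1.1 with Mock, SD, n = 2 each). These are shares of read counts not divided by transcript length, so they do not give shares of molecules.

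**Figure D2:**
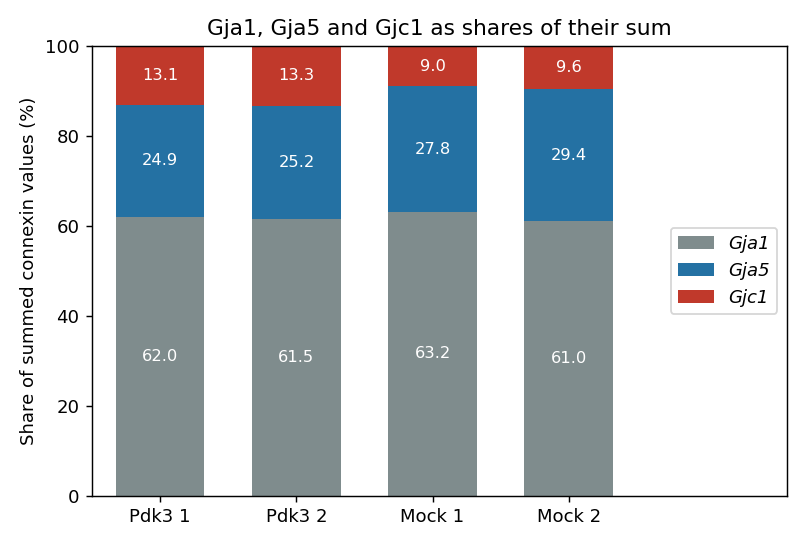
Shares of Gja1, Gja5 and Gjc1 in the sum of their normalised counts (vertical axis, %), with 1 bar per library and the Pdk3 libraries on the left. The Gjc1 share is 13.1% and 13.3% with Pdk3 and 9.003% and 9.590% with Mock.

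The log2 ratio of Gjc1 to Gja5 was -0.92 in each Pdk3 library, against -1.62 and -1.61 in the Mock libraries, a difference of 0.70. That of Gja5 to Gja1 was -1.32 and -1.29 with Pdk3, against -1.18 and -1.05 with Mock, a difference of -0.18, which was -0.25 without Mock 1 and -0.12 without Mock 2. Both differences were larger than the spread within either pair of libraries. With 2 libraries against 2, an exact permutation test cannot go below p = 0.333, so no test is given for single ratios.

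The summed value of the 3 connexins was 2134 and 2166 in the Pdk3 libraries, against 2277 and 2294 in the Mock libraries. The sum was thus lower in both Pdk3 libraries, as the fall of Gja1 and Gja5 outweighed the rise of Gjc1.

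Dsp encodes desmoplakin, which connects the desmosomal plaque to desmin filaments. The gene (ENSRNOG00000013928, chromosome 17, 27286796 to 27334379, minus strand, rn6) had 4394 and 4277 normalised counts in the Pdk3 libraries, against 4579 and 4505 in the Mock libraries. All values of the Pdk3 group were below those of the Mock group, by a small margin. The log2 fold change was -0.07 ± 0.02 (limma, adjusted p = 0.0283, and 0.0351 floored at counting noise).

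Jup encodes plakoglobin, a relative of beta-catenin that binds desmosomal and classical cadherins. The gene (ENSRNOG00000015380, chromosome 10, 88279632 to 88307412, minus strand, rn6) had 1394 and 1368 normalised counts with Pdk3, against 1496 and 1462 with Mock. The groups did not overlap. Its log2 fold change was -0.10 ± 0.02 (limma, adjusted p = 0.0194), but the call was lost with the counting noise floor (adjusted p = 0.0611).

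The transmembrane cadherins of the desmosome gave no call. Dsc2 encodes desmocollin 2 (ENSRNOG00000039969, chromosome 18, 11826706 to 11858754, minus strand, rn6) and had 681 and 678 normalised counts with Pdk3, against 650 and 641 with Mock. Both Pdk3 libraries were higher, but the log2 fold change of 0.07 did not pass the test (95% confidence interval 0.01 to 0.14, limma, adjusted p = 0.112). Dsg2 encodes desmoglein 2 (ENSRNOG00000016526, chromosome 18, 15579315 to 15637715, minus strand, rn6) and had 1688 and 1702 normalised counts with Pdk3, against 1661 and 1697 with Mock. Here the groups overlapped, and the log2 fold change was 0.01 (95% confidence interval -0.03 to 0.06, limma, adjusted p = 0.667).

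Cdh2, N-cadherin of the adherens junction (ENSRNOG00000015602, chromosome 18, 8146971 to 8360684, minus strand, rn6), had 2237 and 2217 normalised counts with Pdk3, against 2171 and 2133 with Mock. The Pdk3 libraries were slightly higher without overlap, and the log2 fold change of 0.05 did not pass (95% confidence interval 0.01 to 0.09, limma, adjusted p = 0.0913). Tjp1 encodes ZO-1, a scaffold that binds the tail of connexin 43 at the rim of gap junctions. It (ENSRNOG00000011077, chromosome 1, 126146489 to 126227469, minus strand, rn6) had 2370 and 2300 normalised counts with Pdk3, against 2481 and 2481 with Mock. Both Pdk3 libraries were lower, and the log2 fold change was -0.09 ± 0.02 (limma, adjusted p = 0.0169, and 0.0235 floored at counting noise). No other gene of the table overlapped any of the 9 genes.

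Within a library, the log2 ratio of Jup to Cdh2 was -0.68 and -0.70 with Pdk3, against -0.54 and -0.54 with Mock. The Pdk3 libraries were the lower ones, by more than the gap within either pair. The log2 ratio of Tjp1 to Gja1 was 0.84 and 0.79 with Pdk3 and 0.79 and 0.83 with Mock, with overlapping groups.

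**Figure D3:**
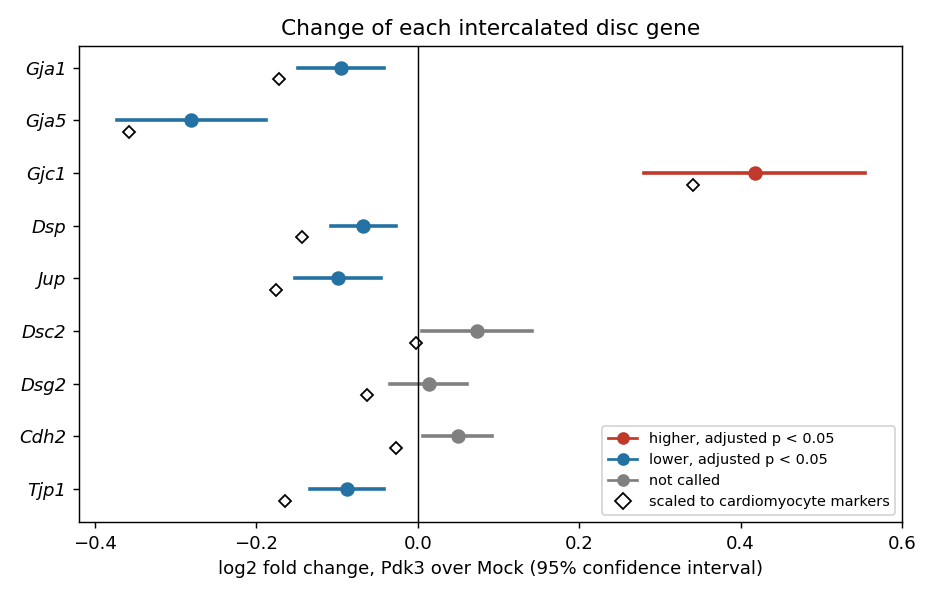
Log2 fold change of each intercalated disc gene, Pdk3 over Mock (horizontal axis), with 95% confidence intervals from limma coloured by call, and open diamonds for the value after scaling to cardiomyocyte markers. Gjc1 stands at 0.42 and Gja5 at -0.28, and under the other scaling every gene lies further to the left, with Cdh2, Dsc2 and Dsg2 at or below 0.

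Cardiomyocyte markers, many of them sarcomere genes, were level or higher with few exceptions. Of 19 tested cardiomyocyte markers 8 were higher (Myh7, Myh6 and Actc1 among them, with log2 fold changes of 0.12, 0.09 and 0.13) and 1 lower (Ryr2, -0.06). Their sums were 37217 to 37712 with Pdk3 and 36177 to 36558 with Mock. Libraries were then scaled so that the median cardiomyocyte marker was level. Log2 fold changes were -0.36 for Gja5, -0.17 for Gja1, -0.18 for Jup, -0.16 for Tjp1, -0.14 for Dsp and 0.34 for Gjc1. Each was still past the test. This scaling lowers the log2 fold change of every gene by about the same amount. The genes already called lower thus moved further down, and their kept calls add no evidence. Of the called genes, Gjc1 alone had its call put at risk. Cdh2 (-0.0273) and Dsc2 (-0.0026) turned sign without passing. Dsg2 turned to -0.06 and passed (limma, adjusted p = 0.0373). Under that scaling the median of all genes was -0.083, against -0.007 as deposited, and 1028 genes were higher and 3432 lower, against 1496 and 1449.

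Leaving out any 1 library left limma with 1 residual degree of freedom and 0 calls among the 9 genes, as among all genes. Unadjusted p was then under 0.05 for 5 of the 9 without Pdk3 1, 3 without Pdk3 2, 5 without Mock 1 and 4 without Mock 2, against 8 with all libraries. Over all genes tested it was under 0.05 for 3277 of 12708 without Pdk3 1, 3330 of 12731 without Pdk3 2, 2918 of 12699 without Mock 1 and 3068 of 12726 without Mock 2, against 4671 of 12838 with all libraries. Among the 9 genes, Gja5 and Gjc1 were under 0.05 in each of the 4 cases. The libraries of a pair differed by less than counting noise (mean chi-square per degree of freedom 0.596 for Pdk3 and 0.595 for Mock), so limma's errors for high-count genes such as these can be smaller than counting noise. Floored at counting noise, 4 of the 9 genes were called (Gjc1 higher, Gja5, Tjp1 and Dsp lower), where 15.8% of all genes were (8.38% higher and 7.44% lower).

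Of other connexins and pannexins, 4 of 10 measured genes had values high enough for the test, 1 of them higher and 1 lower. Gja3, connexin 46, had 129 and 155 normalised counts with Pdk3, against 105 and 114 with Mock (log2 fold change 0.37, limma, adjusted p = 0.0476, and 0.0620 floored at counting noise). Panx2, a pannexin, had 209 and 202 with Pdk3, against 260 and 233 with Mock (log2 fold change -0.26, limma, adjusted p = 0.0330). In each of these genes the groups did not overlap.

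Of 12 tested other desmosome and intermediate filament genes, 2 were higher and 1 lower. The muscle intermediate filament gene Des had a log2 fold change of 0.10, and Vim, the mesenchymal filament gene, of 0.15. Ppl, a plakin related to desmoplakin, fell by 0.52 on the log2 scale (50 and 48 with Pdk3, 76 and 66 with Mock). Scaled to cardiomyocyte markers, Des had 0.03 and no longer passed.

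Among 29 tested catenin and adherens junction genes, 6 were higher and 3 lower. Xirp2, an actin-binding Xin-repeat protein found at the disc, had 8084 and 7809 normalised counts with Pdk3, against 7027 and 6862 with Mock (log2 fold change 0.19). The alpha-catulin gene Ctnnal1 had a log2 fold change of 0.20. Tln1, which links integrins to actin, had -0.09 and the endothelial cadherin gene Cdh5 -0.52. The core catenins did not pass, with log2 fold changes of 0.05 for Ctnnb1 (limma, adjusted p = 0.255) and 0.07 for Ctnna1 (0.0794), nor did vinculin, Vcl (0.06, adjusted p = 0.0652).

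Of 25 tested tight junction and polarity scaffold genes, 4 were higher and 3 lower. Magi1, a scaffold of junction complexes, had 935 and 932 normalised counts with Pdk3, against 1031 and 1041 with Mock (log2 fold change -0.15), and Patj had -0.19. The tight junction membrane genes Ocln and Marveld2 were higher, with 0.66 and 0.73, at low values: Ocln had 65 and 51 with Pdk3, against 35 and 37 with Mock. Cask had 0.26 and lost its call when floored at counting noise (adjusted p = 0.112).

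Of 23 tested channel, anchor and Popeye genes, 2 were lower and 0 higher. Scn4b, which encodes an auxiliary beta subunit of voltage-gated sodium channels, had 128 and 131 normalised counts with Pdk3, against 207 and 200 with Mock (log2 fold change -0.65 ± 0.07, limma, adjusted p = 0.000676). The Pdk3 libraries were lower without overlap.

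Among 28 tested cardiac, Sp and AP-1 transcription factors, 3 were higher and 3 lower, with 21 of 28 below 0. Etv1, which in mice is known from fast-conducting atrial and Purkinje muscle, had 414 and 391 normalised counts with Pdk3, against 262 and 272 with Mock (log2 fold change 0.59 ± 0.05, limma, adjusted p = 0.000245). Mef2c had 0.32. Tbx20 had 0.12 and lost its call when floored at counting noise (limma, adjusted p = 0.0717) and when scaled to cardiomyocyte markers (adjusted p = 0.242). Irx3, a homeobox factor known in mice to act on Gja5 and Gja1 in the conduction system, had 217 and 239 with Pdk3, against 289 and 266 with Mock (-0.28 ± 0.07, adjusted p = 0.0242). Tbx3, a repressor of connexin genes in nodal tissue, had -0.31 and did not pass (adjusted p = 0.0506). Nkx2-5 (-0.09, adjusted p = 0.166) and Tbx5 (-0.06, adjusted p = 0.432) did not pass either. Jun, a component of AP-1, had -0.10 and lost its call when floored at counting noise (adjusted p = 0.135).

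Among 30 tested genes of connexin turnover, phosphorylation and transport, 6 were higher and 4 lower. Mapre1, the microtubule plus-end protein EB1 that helps deliver connexin 43 to the cell border, had 801 and 753 normalised counts with Pdk3, against 680 and 683 with Mock (log2 fold change 0.19). The kinesin gene Kif5b had 0.12 and did not pass when scaled to cardiomyocyte markers (limma, adjusted p = 0.133). Sqstm1, an autophagy receptor, had -0.18 and Usp8, a deubiquitinase of the endosome, -0.16. Costamere and integrin genes, the contact of muscle cells with the matrix, had 6 of 34 higher and 7 lower. Itga6 had 1433 and 1442 with Pdk3, against 1168 and 1212 with Mock (0.27), and Itga1 1013 and 990 with Pdk3, against 1194 and 1166 with Mock (-0.24).

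Over the 8 lists, 28 of 185 distinct genes tested were higher and 24 lower, 28.1% in all, against 22.9% of all genes tested, with a median log2 fold change of 0.015. Floored at counting noise, 17 were higher and 18 lower. Scaled to cardiomyocyte markers, 11 were higher and 62 lower, and 11 of the 28 and 24 of the 24 kept their calls. Of all 12776 genes tested under that scaling, 1028 were higher and 3432 lower. It moves every gene down, so the kept lower calls are no result about these lists.

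**Figure D4:**
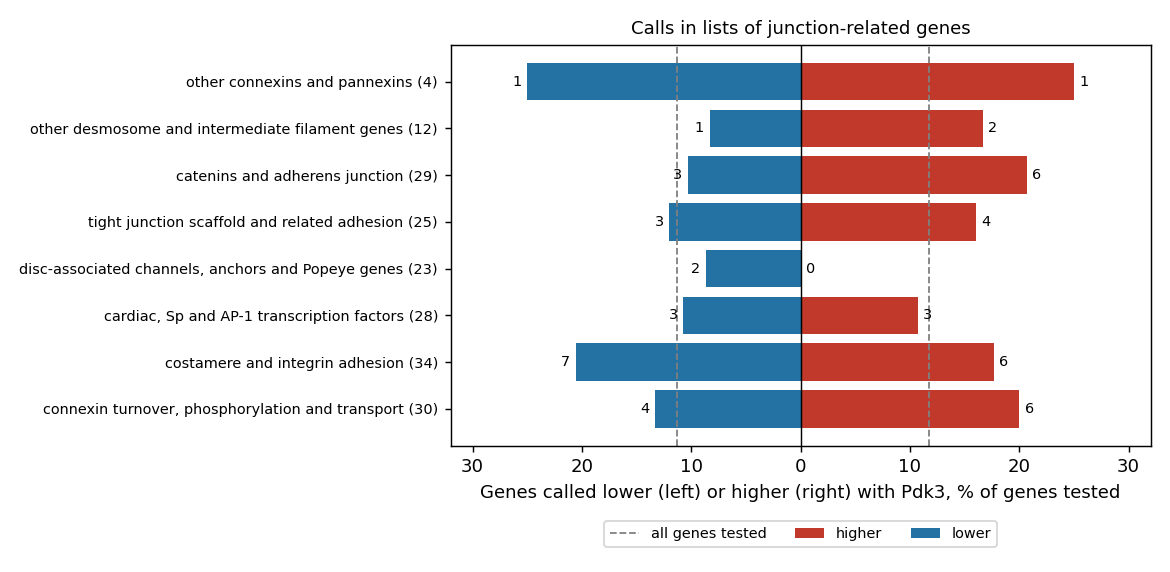
Percentage of genes called higher (right) or lower (left) with Pdk3 in 8 lists of junction-related genes (horizontal axis; number of genes tested in parentheses, number called beside each bar). Dashed lines mark the shares over all genes tested, 11.7% higher and 11.3% lower.

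Markers of other cells of the heart were present in these cultures, and some differed between the groups. Macrophage and leukocyte markers had 6 of 13 lower and 0 higher, with sums of 1585 to 1633 with Pdk3 and 1898 to 2012 with Mock. Smooth muscle and pericyte markers had 4 of 12 higher (Cnn1, Tagln, Acta2, Cspg4) and 1 lower (Abcc9). Of the 12, 5 had a log2 fold change above 0 and 7 below. The defining markers Myh11 (0.04) and Rgs5 (-0.21) did not pass. Sums of the list were 8792 to 8848 with Pdk3 and 8434 to 8527 with Mock. Of 11 mesothelial and epicardial markers, 2 were lower (Krt19 and Lrrn4), with sums of 1790 to 1811 with Pdk3 and 1872 to 1902 with Mock. Erythroid genes had 2 of 3 lower, both rows of Hba-a2 and so near-identical copies, and of 3 neural markers Prph was higher. Among the defining markers measured, 0 were at 0. The part of these cells in the values of the disc genes was not tested.

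**Figure D5:**
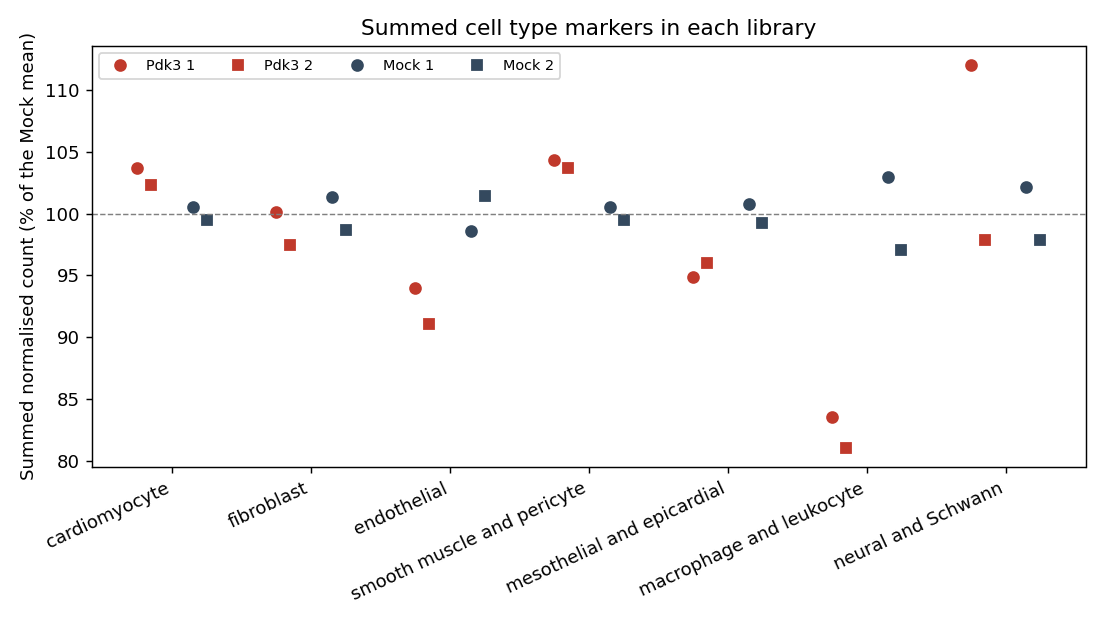
Summed normalised counts of cell type marker lists in each library as a percentage of the mean of the Mock libraries (vertical axis, which does not start at 0), with Pdk3 libraries left (red) and Mock libraries right (dark). Macrophage and leukocyte markers lie at 83.5% and 81.1% with Pdk3 and cardiomyocyte markers at 104% and 102%. The erythroid list is not drawn. It had low sums of 39 and 39 with Pdk3 and 76 and 83 with Mock.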

How the data were processed

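RNA from cultured neonatal rat cardiomyocytes was sequenced as stranded mRNA libraries, 2 per group. The submitters' processing notes name Trimmomatic 0.39, STAR 2.6.1d, featureCounts 1.6.5, DESeq2 1.26.0 and build rn6, with no settings. The strand setting and the treatment of duplicate reads are not stated in the labels. The deposited values are treated as a score, because the authors scaled read counts between libraries and rounded them, as read from the tools named and the gaps between values. Scaling factors recovered from the rounding steps were 0.9246 and 0.9627 for Pdk3 and 1.0256 and 1.0567 for Mock, which gives about 4139000 to 4707000 reads in genes per library. Since separate cultures are not stated, p-values reflect no more than the variation among these 4 libraries, possibly technical.

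Tests used log2(value + 1), on which changes of low genes are understated, and limma 3.58.1 in R 4.3.3 (intensity trend, group as the single term, two-sided). Genes with 10 or more in 2 or more libraries were kept, and p was adjusted over all 12838 genes at a threshold of 0.05. The genes and lists were chosen with earlier results of these data known. From each list the text names genes among the 4 with the smallest p in the direction of most calls and the 2 in the opposite one. Ctnnb1, Ctnna1, Vcl, Tbx3, Tbx5, Nkx2-5 and Jun are named outside this rule, after their values were seen. The result for 1 gene that the rule names is not reported here. The fit was repeated with a replicate block, without each library, with other scalings (TMM, ribosomal protein genes, cardiomyocyte markers), other filters and pseudocounts, no intensity trend, a floor at counting noise and stricter thresholds.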

Additional observations from a re-analysis of the deposited data

How the results depend on the processing

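Gja1, Gja5, Gjc1, Dsp, Jup and Tjp1 kept their direction under all 14 alternative fits. In that order, log2 fold changes were -0.18 to -0.08, -0.37 to -0.24, 0.33 to 0.47, -0.15 to -0.05, -0.19 to -0.08 and -0.17 to -0.07. These fits could not turn the sign of these genes. The block, the filters, the trend and the noise floor leave the change as it is, and the pseudocounts hardly move it. Leaving out 1 library cannot turn a gene whose groups do not overlap, as in these genes. The other scalings shift all genes by about the same amount, which was too small to turn any of these genes. Under TMM scaling Dsp had -0.0568, and scaled to ribosomal protein genes Gjc1 had 0.3311. Their kept directions thus add no evidence. Only genes with a change near 0 could turn. Scaled to ribosomal protein genes, Dsc2 had -0.0127, Dsg2 -0.073 and Cdh2 -0.0373, and scaled to cardiomyocyte markers -0.0026, -0.0629 and -0.0273, so these 3 turned sign. With 1 library left out, Dsg2 ranged between -0.0017 (without Mock 1) and 0.0292 (without Mock 2). With 1 library left out, counts of calls were 0 to 0 in either direction for the disc genes, all genes and the 8 lists, with 1 residual degree of freedom. Under TMM scaling 2 disc genes were higher (Gjc1 and Cdh2) and 5 lower. Of all 12784 genes tested under that scaling, 1849 were higher and 1507 lower, against 1496 and 1449 as deposited.

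Disc genes called lower numbered 1 without a filter on low values, 0 without an intensity trend, 3 floored at counting noise, 1 at a false discovery rate of 0.01 and 0 with a minimum log2 change of 1, where 0 were higher. Over all genes, 737 were higher and 539 lower without a filter, 526 and 325 without a trend, 766 and 576 at the stricter rate, and 157 and 51 with the minimum change. Floored at counting noise 955 were lower. The ribosomal protein scaling gave 945 higher and 3621 lower, and scaled to cardiomyocyte markers 3432 were lower. Over the 8 lists, 8 and 9 were called without a filter, 2 and 2 without a trend, 7 and 10 at the stricter rate, 0 and 0 with the minimum change, 7 and 66 scaled to ribosomal protein genes and 11 and 62 scaled to cardiomyocyte markers. Floored at counting noise 17 were higher. The cause of these changes was not tested.

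With the replicate number as a block, 1 disc gene was higher and 5 lower, and over all genes 1374 and 1298. Deviations of libraries with the same number were uncorrelated (r = 0.004 over 10583 genes). The libraries of a group differed by less than counting noise, so this cannot show whether the numbers pair the libraries. The log2 ratio of Gjc1 to Gja5 differed by 0.68 with a pseudocount of 8. At this depth, changes of a few percent in genes such as Gja1 and Jup lie near counting error.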
